A study of Canis lupus familiaris with 26 samples.

Results

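The nuclear genes described here encode parts of the mitochondrial respiratory chain and of the mitochondrial ribosome, measured by RNA-Seq in the canine corpus luteum (CL), the transient gland that forms from the ovulated follicle. Of the 19856 genes counted, 29 were included. They are the genes on the study's lists of differentially expressed genes (DEGs) whose symbol begins as those of complex I (NDUF), complex II (SDHA to SDHD, with the assembly factors), complex III (UQCR), complex IV (COX4 to COX8), complex V (ATP5) or the mitoribosomal proteins (MRPL, MRPS). The lists held 4888 identifiers, of which 4355 had a symbol, so that the 29 genes were chosen by measured values and are not the whole family: 163 protein-coding symbols of the dog annotation begin in this way. Among the 29, 7 belonged to complex I, 1 to complex II, 2 to complex III, 3 to complex IV, 2 to complex V, 7 to the large and 7 to the small mitoribosomal subunit. On the list for luteal age (days 20 and 30 over days 5 and 10 in controls) stood 26 of them, and 5 stood on a list for treatment.

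CL were dissected from ovaries of 26 mixed-breed bitches of different ages, whose age per dog the labels do not give. Treated dogs received firocoxib (Previcox), an inhibitor of cyclooxygenase 2 (COX2), orally at 10 mg/kg daily from ovulation until ovariohysterectomy on day 5, 10, 20 or 30. The treatment protocol gives a placebo for the control dogs, while the design text calls them untreated. There were 4 control and 4 treated dogs on day 5 and 3 of each on days 10, 20 and 30, each dog a single library of poly-A selected RNA. The study had removed further libraries of days 10 and 30, control and treated, as outliers by their expression. The spread within these groups was therefore measured after that removal.

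Complexes I to IV of the inner mitochondrial membrane pass electrons from metabolic substrates to oxygen, all but complex II pump protons on the way, and complex V uses the proton gradient to make ATP. Most subunits are encoded in the nucleus, whereas a few hydrophobic ones are encoded by mitochondrial DNA and translated by the mitoribosome, all of whose proteins come from nuclear genes. In luteal cells mitochondria also hold the enzyme that converts cholesterol to pregnenolone, the opening step of progesterone synthesis.

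Libraries held between 12831896 and 22658950 reads assigned to genes. Day 5 treated 1, day 10 treated 1, day 20 treated 2 and day 20 treated 3 stood apart: their mean correlation with the other libraries of their group was 0.851, 0.862, 0.800 and 0.835, whereas it was between 0.894 and 0.966 in the other 22. Day 5 treated 1 held the highest value of the 26 libraries for 22.2% of genes and the lowest for 17.4%. Of the 8 luteal cell markers listed, 3 could be looked up (FDX1, LHCGR and PRLR), and their summed level was between 284 CPM in day 20 treated 3 and 2129 CPM in day 5 treated 5. Levels are given as CPM, reads scaled to the size of the library after TMM normalisation, and because the tissue was sequenced in bulk, fewer cells of a type and less RNA per cell cannot be told apart.

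**Figure D1:**
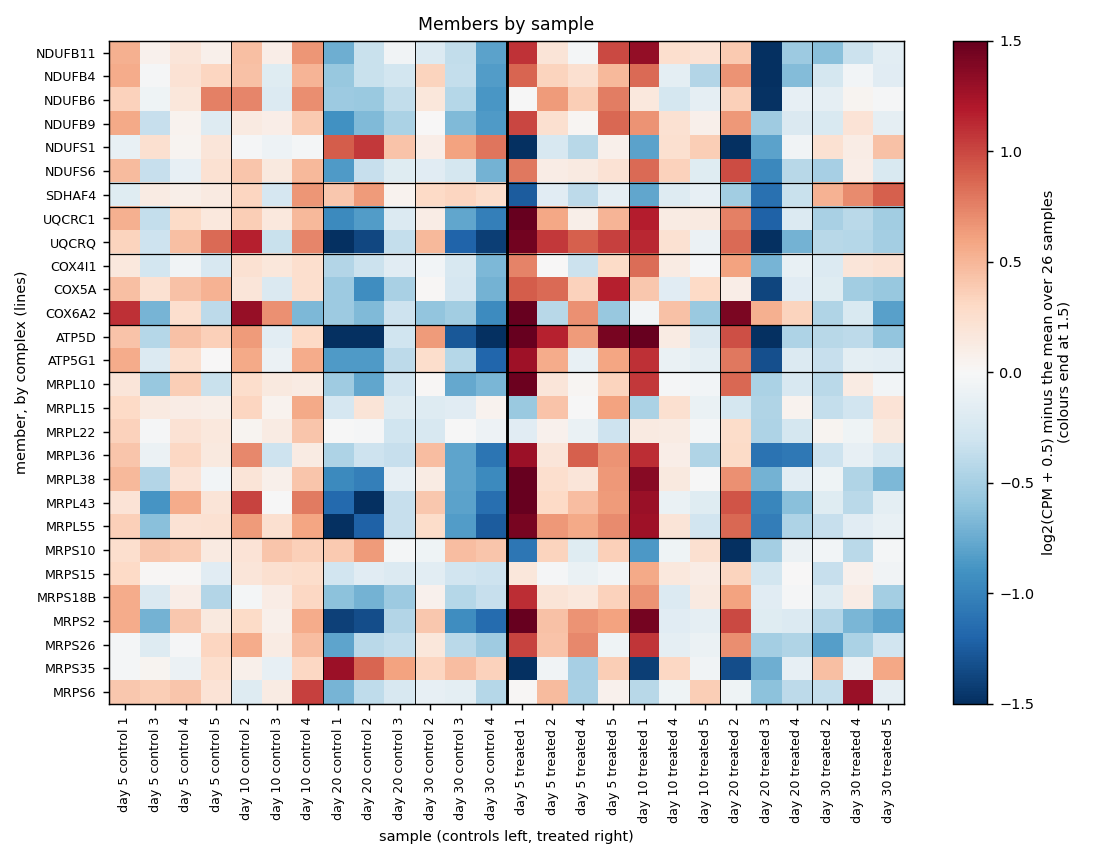
Level of 28 of the 29 genes (rows, grouped by complex) in each of the 26 libraries (columns, controls left of the thick line, treated right), as log2(CPM + 0.5) minus the gene's mean over all libraries. Most genes are red on days 5 and 10 and blue on days 20 and 30, and day 5 treated 1, day 10 treated 1 and day 20 treated 2 hold red and blue genes side by side.

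In control dogs most of these genes had lower levels in the mature than in the early CL. Of the 26 genes on the list for luteal age, 24 had a negative and 2 a positive log2 fold change of the mature (days 20 and 30) over the early CL (days 5 and 10). With edgeR 20 of the 26 were past both thresholds (P under 0.01 and false discovery rate, FDR, under 0.1), 18 lower and 2 higher, where 20.5% of the 13503 genes tested were past them, 10.4% lower and 10.1% higher. This contrast chose the genes, so that these values are a description. The 23 genes listed as lower on that list alone ranged from -1.24 (UQCRQ) to -0.30 (MRPL22) on the log2 scale, with a median of -0.71, whereas the median of all genes tested was 0.02. Without the day 20 control dogs, 1 of the 26 was past both thresholds, where 12.7% of all genes were. Markers of fibroblasts and leukocytes, also known only from the study's lists, moved with luteal age in the same direction. Not all cell types did: of the 4 endothelial markers with an identifier 3 were higher, 2 past both thresholds, with a median of 0.64. All 3 luteal cell markers with an identifier were higher, and smooth muscle and pericyte markers split, 3 higher and 3 lower. All 5 fibroblast markers with an identifier were past both thresholds as lower, with a median of -1.39, and so were both leukocyte markers with one (of 7 listed), with a median of -1.60. The fibroblast sum was between 6472 and 21102 CPM in early and between 2837 and 7196 CPM in mature controls, and the leukocyte sum between 22.0 and 53.2 CPM and between 8.39 and 14.9 CPM. Their part in the lower levels was not tested.

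With DESeq2 in the same control contrast, ATP5D was the gene on the list with the largest P, at a log2 fold change of -1.02 and an adjusted p of 0.0346. MRPL36, which was not on the list for luteal age, lay outside through a P above 0.01, at -0.63 and an adjusted p of 0.0730.

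The same contrast in the 13 treated dogs used none of the libraries that chose the 24 genes listed for luteal age alone. Treatment ran until surgery, so that in these dogs luteal age and length of treatment rose together and cannot be told apart. Of the 23 listed as lower, 21 were also below 0 in treated dogs, with their median at -0.57 (log2), where 50.2% of the 13747 genes tested were below 0 and the median of all genes was -0.003. None of the 29 genes passed both thresholds in this contrast, where 4.65% of all genes did, and so none of the 23 in the quasi-likelihood test of edgeR, adjusted by Benjamini-Hochberg, where 3.11% of all genes did so as lower; 8 were lower at an unadjusted P under 0.05, where 12.3% of all genes were. DESeq2 called 5 of the 23 as lower, where it called 7.75% of all genes so. The fibroblast markers were all below 0 in treated dogs too, with a median of -1.12 and none past both thresholds, and the leukocyte markers had a median of -1.54, with 1 of them past both as lower. The fibroblast sum was between 4135 and 26083 CPM in the early and between 2363 and 13668 CPM in the mature treated CL, and the leukocyte sum between 20.9 and 69.3 CPM and between 9.67 and 20.1 CPM. Unlike in controls, all 4 endothelial markers were below 0, with a median of -0.56. Of the 6 smooth muscle and pericyte markers 5 were, with a median of -0.93, and 0 markers of these lists passed both thresholds. Of the 3 luteal cell markers 2 were above 0, 1 past both thresholds. The part of these cell types was not tested here either. For comparison, among the 1394 genes called lower in controls and tested in both contrasts, 85.5% were below 0, 49.1% were lower at an unadjusted P under 0.05, 21.7% passed both thresholds and the median was -0.89. These sets are not alike in controls. There the 1394 genes, all called by edgeR, had a median of -1.22, whereas the 23 had one of -0.71 and edgeR called 17 of them. Whether the change with luteal age differed between control and treated dogs was not tested, since the control values chose the genes.

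The count rose most when 1 library was omitted. Without day 20 treated 2, 10 of the 23 passed both thresholds as lower, where 9.78% of all genes did: NDUFB11, UQCRC1, UQCRQ, COX5A, ATP5D, MRPL38, MRPL43, MRPL55, MRPS2 and MRPS26. Without day 5 treated 1, day 10 treated 1 and day 20 treated 2 together, 7 of the 23 passed, where 7.27% of all genes did. Both omissions were chosen after the data had been seen.

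**Figure D2:**
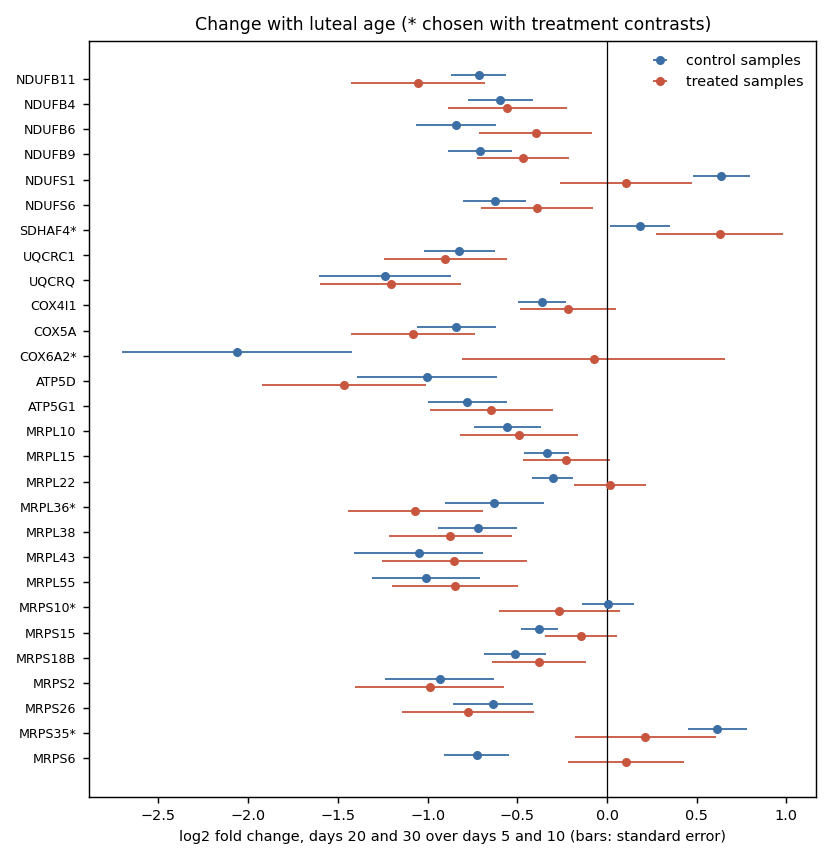
Log2 fold change of the mature (days 20 and 30) over the early CL (days 5 and 10) for 28 of the genes, in control dogs (blue) and treated dogs (red), with bars for the standard error. Genes with an asterisk stood on a list for treatment; most points of both colours lie left of 0, with ATP5D at -1.0 in control and -1.47 in treated dogs, while NDUFS1 and MRPS35 lie right of it.

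Complex I, the NADH dehydrogenase, was represented by 4 accessory subunits of its membrane arm (NDUFB4, NDUFB6, NDUFB9 and NDUFB11) and, among others, by NDUFS1 and NDUFS6 of the arm that oxidises NADH. NDUFB11 was between 91.6 and 139 CPM (median 99.5) in early controls and between 50.2 and 84.8 CPM (median 68.7) in mature controls. In treated dogs it was between 85.6 and 219 CPM (median 104) in the early and between 16.7 and 115 CPM (median 65.0) in the mature CL. The control groups did not overlap, as in 2.47% of all genes in this direction, whereas the treated groups did, through day 20 treated 2 at 115 CPM. The treated change was -1.05 ± 0.37 (SE) on the log2 scale (edgeR, adjusted p = 0.144). NDUFB4, NDUFB6, NDUFB9 and NDUFS6 had treated changes between -0.56 and -0.39, and none passed the thresholds.

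NDUFS1, the largest core subunit with iron-sulphur clusters, had the opposite direction in controls. It was between 265 and 339 CPM (median 285) in early and between 309 and 598 CPM (median 471) in mature controls. The highest values were those of day 20 control 1 and 2, at 541 and 598 CPM. In treated dogs the early libraries were between 91.2 and 371 CPM (median 243) and the mature ones between 93.2 and 389 CPM (median 294), and these ranges overlapped almost entirely. The log2 fold change was 0.64 ± 0.16 in controls and 0.10 ± 0.37 in treated dogs (edgeR, adjusted p = 0.883 for the treated contrast).

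SDHAF4, an assembly factor of succinate dehydrogenase (complex II), was chosen by the day 20 treatment contrast and not by luteal age. It was between 9.31 and 17.9 CPM (median 12.2) in early and between 11.6 and 17.7 CPM (median 13.9) in mature controls. In treated dogs the early libraries were between 4.42 and 10.2 CPM (median 9.68). The mature treated libraries spread most, from 4.87 CPM in day 20 treated 3 to 21.2 CPM in day 30 treated 5.

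Complex III, which passes electrons to cytochrome c, was represented by its core protein UQCRC1 and its small subunit UQCRQ. UQCRQ was between 13.8 and 39.9 CPM (median 24.2) in early controls and between 5.59 and 24.8 CPM (median 6.92) in mature controls. In treated dogs it was between 16.5 and 48.7 CPM (median 36.2) in the early and between 4.19 and 32.1 CPM (median 12.6) in the mature CL. Of the 6 mature treated libraries, 5 lay below all early ones, and day 20 treated 2 alone lay among them. The treated change was -1.20 ± 0.39 (edgeR, adjusted p = 0.121). For UQCRC1 the treated change was -0.90 ± 0.34 (edgeR, adjusted p = 0.167), with medians of 139 CPM in the early and 71.5 CPM in the mature CL, and here too 1 mature library, day 20 treated 2 at 164 CPM, lay above the early median.

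Of complex IV, cytochrome c oxidase, the ubiquitous nuclear subunits COX4I1 and COX5A were listed as lower. COX5A was between 3.51 and 6.21 CPM (median 5.06) in early controls and between 1.95 and 4.23 CPM (median 2.77) in mature controls. In treated dogs it was between 3.65 and 9.98 CPM (median 5.68) in the early and between 1.30 and 4.52 CPM (median 3.18) in the mature CL. Day 5 had the highest values in both groups, and the ranges of early and mature CL overlapped in both. The treated change was -1.08 ± 0.34 (edgeR, adjusted p = 0.115). For COX4I1 the log2 fold change was -0.36 ± 0.13 in controls and -0.22 ± 0.27 in treated dogs (edgeR, adjusted p = 0.650 for the treated contrast).

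Complex V, the ATP synthase, was represented by ATP5D, the delta subunit of the catalytic part, and by ATP5G1, which encodes subunit c of the membrane ring. ATP5D was between 27.8 and 59.2 CPM (median 48.4) in early controls and between 9.98 and 59.0 CPM (median 13.6) in mature controls. In treated dogs it was between 32.5 and 186 CPM (median 84.8) in the early and between 12 and 74.4 CPM (median 27.7) in the mature CL. Day 20 control 3, day 30 control 2 and day 20 treated 2 were the mature libraries that lay among the early ones of their group. The treated change of -1.47 ± 0.46 was the largest of the 23 and had the lowest adjusted p, 0.108 by edgeR. For ATP5G1 the treated change was -0.64 ± 0.34 (edgeR, adjusted p = 0.306). The paralogs of ATP5G1 encode the same mature protein, so that reads may have been divided between them.

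**Figure D3:**
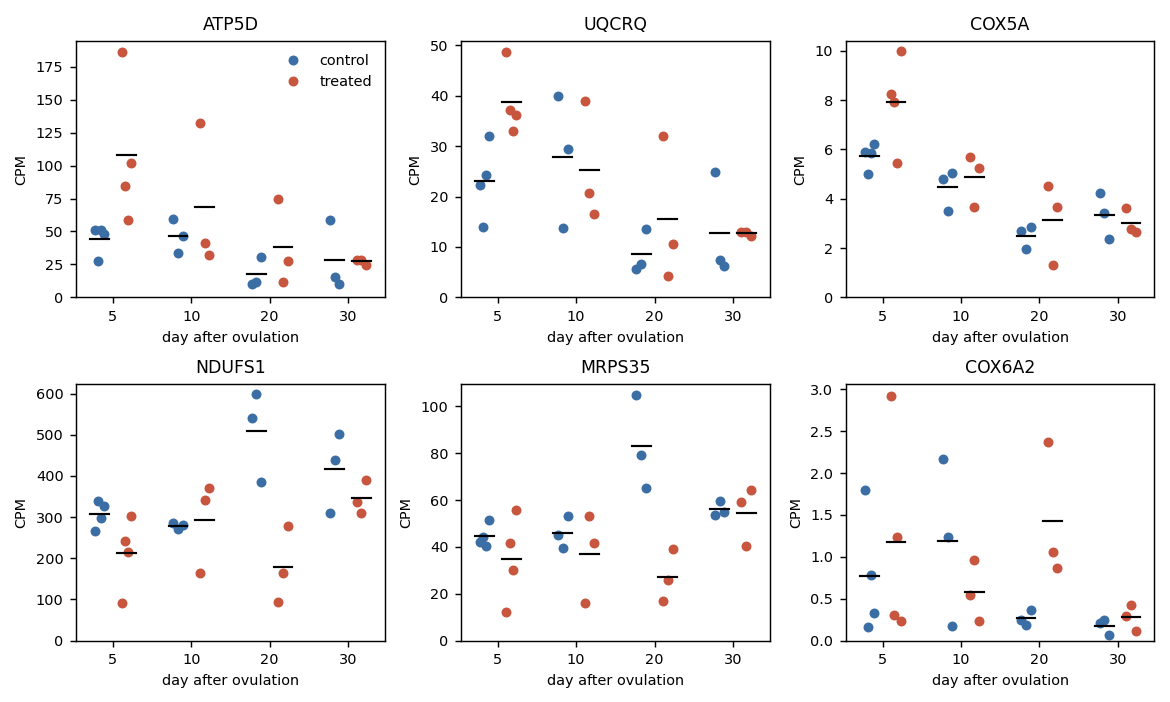
CPM of 6 of the genes in each library by day after ovulation (blue, control; red, treated; black line, group mean; axes start at 0 and differ between panels). ATP5D, UQCRQ and COX5A were highest on day 5 in treated dogs, NDUFS1 and MRPS35 were highest in day 20 controls, and COX6A2 stayed below 3 CPM throughout.

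Among the 7 proteins of the large mitoribosomal subunit, 6 were below 0 in treated dogs, with changes from -1.07 (MRPL36) to -0.23 (MRPL15), and MRPL22 was at 0.02. MRPL38 was between 24.8 and 76.9 CPM (median 29.6) in early and between 14.9 and 40.2 CPM (median 20.1) in mature treated dogs. Its treated change was -0.87 ± 0.34 (edgeR, adjusted p = 0.180). MRPL36 stood on a day 20 treatment list, so that its treated change of -1.07 ± 0.38 is given without a test; it was between 3.40 and 12.5 CPM (median 7.98) in early and between 1.98 and 5.97 CPM (median 3.89) in mature treated dogs.

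Of the 7 proteins of the small subunit, 5 were listed as lower with luteal age. MRPS2 was between 14.5 and 68.6 CPM (median 25.1) in early and between 9.21 and 33.0 CPM (median 13) in mature treated dogs. Its treated change was -0.99 ± 0.42 (edgeR, adjusted p = 0.208). MRPS26, at 2.16 to 9.41 CPM in treated dogs, had a treated change of -0.77 ± 0.37 (edgeR, adjusted p = 0.257). MRPS15 was at -0.15, MRPS18B at -0.38 and MRPS6 at 0.11, none past the thresholds. MRPS35 was higher in all mature controls (53.6 to 105 CPM, median 62.4) than in all early controls (39.4 to 53.2 CPM, median 44.3), where groups did not overlap as higher for 3.70% of all genes. In treated dogs the ranges of MRPS35 overlapped, at 12.2 to 55.8 CPM (median 41.5) in the early and 16.7 to 64.3 CPM (median 39.9) in the mature CL. MRPS10 had nearly the same median in early and mature controls, 16.4 and 17 CPM.

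Averaged over the 29 genes, as the mean of log2 CPM centred per gene, the level was 0.20 ± 0.23 (SD, n = 7) in early and -0.39 ± 0.29 (SD, n = 6) in mature controls. In treated dogs it was 0.33 ± 0.28 (SD, n = 7) in the early and -0.22 ± 0.41 (SD, n = 6) in the mature CL. The lowest library was day 20 treated 3 at -0.90 and the highest day 5 treated 1 at 0.73, and day 20 treated 2 lay at 0.38. Between mature and early treated CL the difference was -0.55, at -0.41 without day 20 treated 3 and -0.67 without day 20 treated 2. These averages are given without a test.

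The 9 mitochondrially encoded subunits with an identifier (of 13) all stood on a treatment list for day 20 or 30, so that their values are a description as well. In controls all 9 had higher levels in the mature CL, with their median change at 0.60 (log2), and in treated dogs all 9 had lower ones, with a median of -0.41. None of the 9 passed both thresholds in either contrast, where 20.5% of all genes did in controls and 4.65% in treated dogs. Their mean level in controls (log2 CPM, centred per gene) was -0.26, 0.31, 0.99 and 0.16 on days 5, 10, 20 and 30. Day 20 alone thus stood above day 10. In treated dogs the mean level was -0.49, 0.47, -1.16 and 0.21 on these days. On day 20 the 9 subunits made up between 8.46% and 10.3% of reads in the 3 controls and between 1.18% and 4.34% in the 3 treated dogs, and the log2 fold change of treated over control was between -2.13 and -1.15. The summed level of the 3 luteal cell markers was between 1351 and 2026 CPM in day 20 controls and between 284 and 897 CPM in day 20 treated dogs. The day 20 contrast itself had chosen FDX1 (-1.45) and PRLR (-1.34) as lower, so that the lower sum is a description. LHCGR, which that contrast did not choose, was at 0.04. The part of luteal cells in the share was not tested. Over all libraries the share ran from 1.18% in day 20 treated 2 to 13.1% in day 10 treated 4.

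**Figure D4:**
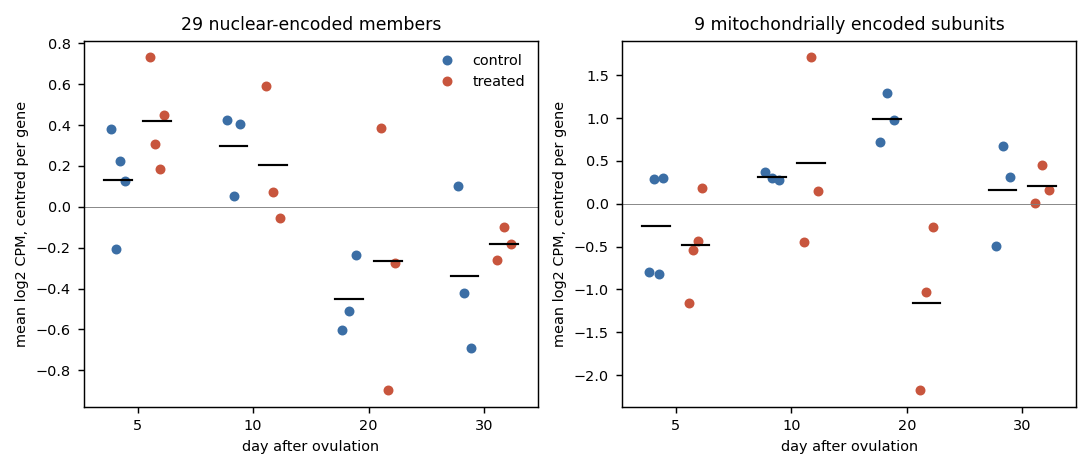
Mean log2 CPM, centred per gene, of the 29 nuclear genes (left) and the 9 mitochondrially encoded subunits (right) in each library by day (blue, control; red, treated; black line, group mean). In day 20 controls the nuclear genes lie between -0.60 and -0.23 while the mitochondrially encoded ones lie between 0.72 and 1.29; day 20 treated 2 has the lowest value on the right, -2.17, and 0.38 on the left.

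Related lists could be looked up only where their genes stood on the study's lists, which chose them on these samples, so that the counts in controls (where 10.4% of all genes were past the thresholds as lower and 10.1% as higher) are a description. Of 16 genes of the tricarboxylic acid cycle and of pyruvate dehydrogenase 3 had an identifier: in controls DLAT, a subunit of pyruvate dehydrogenase, was at 1.27 and IDH3A, a subunit of isocitrate dehydrogenase, at 0.35, while SUCLG1, a subunit of succinyl-CoA ligase, was at -0.40; none of the 3 passed the thresholds in treated dogs. Of 15 genes of membrane and protein import 5 had one, and 3 were past the thresholds as lower in controls: PHB, TIMM44 and TIMM50, at -0.50, -0.68 and -0.60; none passed in treated dogs, where all 5 were below 0. Of 33 assembly factors 6 had one, and in controls UQCC1, at 0.52, was past the thresholds as higher, and UQCC2 and UQCC3, at -0.66 and -2.46, as lower, all of them factors of complex III. The 1 regulator of mitochondrial biogenesis with an identifier, PPARGC1A, was at -1.13 in controls and at 0.85 in treated dogs. Both the list for luteal age and the day 20 treatment list held it, so that these changes are given without a test. Its level was low, from 0.17 CPM in day 5 treated 5 to 4.48 CPM in day 20 treated 3. The next highest treated library was day 10 treated 4 at 1.67 CPM. The 55 proteins of the cytosolic ribosome on the lists had a mean level 0.89 lower (log2) in mature than in early controls, against a difference of 0.03 in treated dogs.

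For firocoxib the treated dogs were compared with the control dogs of the same day. These contrasts share the control libraries that chose the genes listed for luteal age. No gene of the 29 passed both thresholds on any day by edgeR, where 0% of all genes did on days 5, 10 and 30 and 0.102% on day 20. DESeq2 called none of them on days 5, 10 and 30, where it called 0.733%, 0% and 0.879% of all genes, and 3 on day 20, where it called 10.8%.

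On day 5, 21 of the 29 genes were above 0, with a median change of 0.46 (log2) where all genes had 0.03, and 51.4% of all genes were higher. UQCRQ, ATP5D and MRPL55 were higher at an unadjusted P under 0.05, where 8.71% of all genes were. ATP5D was at 51.1, 27.8, 51.3 and 48.4 CPM in controls and at 186, 84.8, 58.9 and 102 CPM in treated dogs. UQCRQ was at 22.2, 14.0, 24.2 and 32.1 CPM in controls and at 48.7, 37.2, 33.0 and 36.2 CPM in treated dogs. For these genes and MRPL55 all treated libraries lay above all controls, where groups did not overlap as higher for 5.16% of all genes. The change was 1.27 ± 0.38 for ATP5D, 0.73 ± 0.30 for UQCRQ and 0.81 ± 0.33 for MRPL55, and the adjusted p by edgeR was 0.412 for each. Without day 5 treated 1 the median of the 29 was 0.19 and the change was 0.87 ± 0.28 for ATP5D, 0.61 ± 0.27 for UQCRQ and 0.56 ± 0.27 for MRPL55 (edgeR, adjusted p = 0.635 for each). Smooth muscle and pericyte markers moved with the treated group on day 5: of the 6 with an identifier (of 7), 5 were higher at an unadjusted P under 0.05, with changes of the 6 from -0.35 to 3.41, though the study's day 5 list chose some of them. Their summed level was between 525 and 790 CPM in controls and between 925 and 3323 CPM in treated dogs, and their part in the day 5 values was not tested. On day 10 the median was 0.05 and none of the 29 was past an unadjusted P of 0.05, where 0.902% of all genes were.

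On day 20, 22 of the 29 genes were above 0 and 7 below, with a median of 0.56 where all genes had 0.11, and 54.3% of all genes were higher. Of the genes this contrast did not choose, MRPS2 was higher at an unadjusted P under 0.05, where 11.7% of all genes were, and NDUFS1 lower, where 5.33% were. MRPS2 was at 5.89, 6.21 and 12 CPM in controls and at 33.0, 14.3 and 14.1 CPM in treated dogs, and MRPS18B at 17.7, 16.5 and 18.6 CPM against 41.7, 24.2 and 26.9 CPM. Both were higher in all treated than in all control libraries, where 16.1% of all genes were. NDUFS1 was at 541, 598 and 386 CPM in controls and at 93.2, 165 and 278 CPM in treated dogs, with no overlap, where 14.2% of all genes were lower in this way. The change was 1.37 ± 0.51 for MRPS2 (edgeR, adjusted p = 0.246) and -1.46 ± 0.51 for NDUFS1 (edgeR, adjusted p = 0.226). MRPS10, at 16.8, 20.1 and 12.5 CPM in controls and at 3.76, 8.82 and 11.9 CPM in treated dogs, was lower in all treated libraries as well, with a change of -0.96 ± 0.50 (edgeR, adjusted p = 0.355). Of the 3 genes called by DESeq2, NDUFS1 was the 1 that did not stand on a day 20 list. The day 20 controls had, however, helped to choose NDUFS1 as higher, and MRPS2 and MRPS18B as lower, with luteal age. That choice by itself favours the directions seen here.

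The shift of the genes as a whole on day 20 depended on day 20 treated 2. Without it 15 of the 29 were above 0 and their median was 0.007, where all genes had 0.01. ATP5D was at 1.12 with and 0.19 without it, and UQCRQ at 0.87 with and -0.20 without it. MRPS2 was at 0.86 and NDUFS1 at -1.17 without it (edgeR, adjusted p = 0.261 and 0.158), so that these kept their direction.

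The 4 genes on the day 20 treatment lists are described without a test. The DESeq2 run made here called MRPS35 and COX6A2 among them, but it did not repeat the listing of SDHAF4 and MRPL36. MRPS35 was at 105, 79.3 and 65.3 CPM in day 20 controls and at 16.7, 25.7 and 39.3 CPM in day 20 treated dogs. SDHAF4 was at 15, 17.7 and 11.6 CPM in controls and at 7.64, 4.87 and 8.71 CPM in treated dogs. All treated libraries lay below all controls for both genes, and the log2 fold changes were -1.56 and -1.02. Without day 20 treated 2 that of MRPS35 was -1.33. MRPL36 was at 3.37, 3.78 and 3.69 CPM against 5.97, 1.98 and 2.03 CPM, so that day 20 treated 2 lay above the controls and the others below, with a log2 fold change of -0.10, which was -0.82 without day 20 treated 2.

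COX6A2, the isoform of a complex IV subunit known from heart and skeletal muscle, rested on few reads, between 1 and 44 per library. It was at 0.240, 0.183 and 0.369 CPM in day 20 controls and at 2.37, 1.06 and 0.861 CPM in day 20 treated dogs, a log2 fold change of 2.42. All treated libraries lay above all controls. Markers of the oocyte were higher in day 20 treated dogs too, but the same contrast had chosen all 6 with an identifier (of 8) as higher. Their summed level was between 4.57 and 9.14 CPM in day 20 controls, with NLRP5 and ZP4 at 0 in all 3. In day 20 treated dogs it was between 152 and 271 CPM. The 3 striated muscle markers with an identifier (of 13) summed to between 9.37 and 20.6 CPM in controls and between 10.1 and 32.4 CPM in treated dogs, mostly DES. Among controls of all days COX6A2 was above 1 CPM in day 5 control 1, day 10 control 2 and day 10 control 3, at 1.80, 2.17 and 1.23 CPM, and these had the highest oocyte sums of the 13 controls, 101, 113 and 120 CPM. Day 5 treated 1 had the highest COX6A2, 2.92 CPM, with an oocyte sum of 94.1 CPM and a striated muscle sum of 205 CPM, the highest of all libraries. The pairing did not hold in every library: day 30 treated 2 and day 30 treated 5 had oocyte sums of 139 and 79.4 CPM with COX6A2 at 0.291 and 0.116 CPM, and day 5 treated 4 had an oocyte sum of 4.15 CPM with COX6A2 at 1.24 CPM. The part of these cells in the COX6A2 values was not tested.

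On day 30, 28 of the 29 genes were tested and 23 were above 0, with a median of 0.19 where all genes had 0.05, and 55.5% of all genes were higher. SDHAF4 alone was past an unadjusted P of 0.05 as higher, where 5.52% of all genes were. It was at 13.8, 14.1 and 13.4 CPM in controls and at 16.2, 18.5 and 21.2 CPM in treated dogs. All treated libraries lay above all controls, where groups did not overlap as higher for 5.77% of all genes, and the change was 0.55 ± 0.24 (edgeR, adjusted p = 0.613). MRPS10, which stood on the day 30 list, was at 12.2, 17.8 and 17.1 CPM in controls and at 12.4, 9.53 and 12.5 CPM in treated dogs, a log2 fold change of -0.34 with overlapping groups. The DESeq2 run made here did not repeat its listing.

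**Figure D5:**
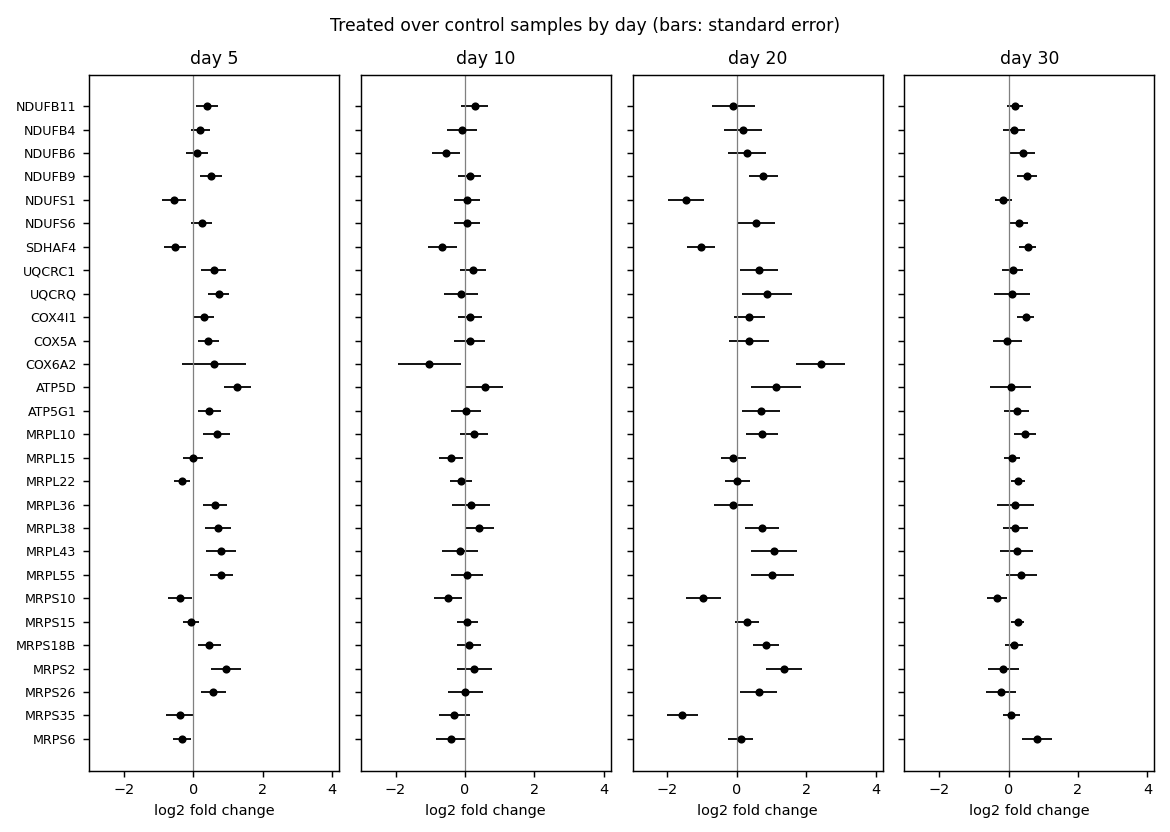
Log2 fold change of treated over control dogs for 28 of the genes on each day, with bars for the standard error; COX6A2 was not tested on day 30. Most points lie right of 0 on days 5, 20 and 30, and the lowest are MRPS35 and NDUFS1 on day 20, at -1.56 and -1.46.

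Day 5 treated 1, day 10 treated 1 and day 20 treated 2 were set side by side after the values were known. In all 3 libraries 14 of the 29 genes were among the 4 highest values of the 26 libraries, where 17.8% of all 14171 genes past the filter were. Another 4 genes, NDUFS1, SDHAF4, MRPS10 and MRPS35, were among the 4 lowest in all 3, a smaller share than the 25.9% of all genes that were. NDUFS1 was at 91.2, 164 and 93.2 CPM and MRPS35 at 12.2, 15.8 and 16.7 CPM in these libraries. ATP5D in the same libraries was at 186, 132 and 74.4 CPM. Mitochondrially encoded subunits made up 2.04%, 3.6% and 1.18% of their reads. The libraries are of 3 different days, and what they share beyond treatment was not tested.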

How the data were processed

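The authors deposited a table of read counts per gene for each of 26 libraries, for which the labels name STAR, featureCounts and the build CanFam3.1; tool versions are not given in the sources used here. Columns without a sample numbered 0. The 29 genes and all lists were chosen with earlier results of these data known. Symbols came from the study's DEG lists, since no table paired the identifiers with symbols: genes of the family off the lists were not analysed here, nor were sequences. Differential expression was tested with edgeR 4.0.16 (R 4.3.3, quasi-likelihood, TMM) on genes averaging 10 reads or more in at least 1 group compared, at P under 0.01 and FDR under 0.1, with Benjamini-Hochberg adjustment over all genes tested. Levels are CPM; log2 CPM used a prior count of 2. Named in full were genes on treatment lists, those listed as higher with age and, per complex or subunit, the 2 of smallest P in treated dogs; from each related list at most 3 genes past both thresholds. The values of 1 gene are not reported here. DES, ZP4, NLRP5, MRPL55, MRPS18B and PPARGC1A were named after their values were seen. Alternatives were DESeq2 1.42.0, RLE factors, no filter, a fit of all 26 libraries, FDR under 0.05, omitted libraries and a replicate block. Scripts were tested on simulated data for luteal age in treated dogs and for treatment on day 20. The planted changes were larger than those of the 29 genes there, so that the simulation does not show how often changes of their size are found. Each library came from a separate dog, and p-values measure the spread between these dogs. Precision is limited by 3 or 4 dogs per group and, for COX6A2, by counting error.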

Additional observations from a re-analysis of the deposited data

Results flagged for a closer look

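Of 116 groups of 6 or 7 libraries examined (early or mature CL, control or treated), 15 held a library far from the others, where chance flags about 1 in 20 groups. Day 20 treated 2 was that library in the mature treated CL for 9 genes, each time as the highest: UQCRC1 at 164 CPM (nearest other 84.4 CPM), UQCRQ at 32.1 CPM (13 CPM), ATP5D at 74.4 CPM (28.6 CPM), MRPL10 at 32.7 CPM (19.4 CPM), MRPL38 at 40.2 CPM (23.6 CPM), MRPL43 at 15.5 CPM (7.01 CPM), MRPL55 at 21.0 CPM (10.4 CPM), MRPS2 at 33.0 CPM (14.3 CPM) and MRPS26 at 7.15 CPM (3.36 CPM). Day 30 control 2 was the highest of the mature controls for MRPL36 at 6.86 CPM and MRPS26 at 4.77 CPM. MRPS6 was far above the others in day 30 treated 4 at 62.6 CPM and in day 10 control 4 at 51.9 CPM. COX6A2 stood out in day 5 treated 1 at 2.92 CPM, and MRPS15 in day 10 treated 1 at 138 CPM.

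SDHAF4 differed in opposite directions between treated and control dogs on days 20 and 30, with all treated libraries below the controls on day 20 (log2 fold change -1.02) and all above them on day 30 (0.55). The day 20 value chose the gene, and the difference between the days was not tested.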

How the results depend on the processing

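Of the 26 genes listed for luteal age, 20 were past both thresholds in controls; the number was 10 with the fit of all 26 libraries, 1 without the day 20 controls, and between 10 and 22 with 1 dog left out. In treated dogs none of the 29 genes was past them; the number was 6 with DESeq2, 1 with RLE factors, 7 with the fit of all 26 libraries, 3 without the day 20 treated dogs, 7 without day 5 treated 1, day 10 treated 1 and day 20 treated 2, and between 0 and 11 with 1 dog left out (11 without day 20 treated 2, 3 without day 10 treated 5). On day 20 it was 0, against 3 with DESeq2, 3 with the fit of all 26 libraries and 0 to 1 with 1 dog left out (1 without day 20 treated 2). The causes were not tested. The median of the 23 genes in treated dogs stayed between -0.82 and -0.45 with 1 dog left out. The sign turned with 1 dog left out for NDUFS1 (-0.044 to 0.28) and COX6A2 (-0.69 to 0.56) in treated dogs and for MRPL36 on day 20 (-0.82 to 0.15).

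Replicate numbers did not pair the dogs: the mean correlation of same-numbered libraries was 0.15 on day 5 over 3 pairs, with the lowest at -0.09, and was below 0 on days 10, 20 and 30. With the number as a replicate block, 13 of the 26 genes passed in controls and 0 of the 29 in treated dogs, the median of the 23 in treated dogs was -0.31, and COX4I1 turned to 0.16 there. No block could be fitted on day 10, where the groups share 1 number. Averaged levels over the 29 genes kept their direction for luteal age in all alternatives run, whereas the treatment differences on days 10, 20 and 30 turned sign with a dog left out.

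Of 13726 genes, edgeR called 14 on day 20, and 7.40% of genes without day 20 treated 2.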
